A study of Mus musculus with 12 samples.

Results

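The comparison set one collection of induced neural stem cell (iNSC) arrays, iNSC1, against a second collection, iNSC2, with 3 arrays each, 6 of the 12 mouse arrays of the study. The members are the arrays whose titles carry these set names, and the measured quantity is the mean log2 value of the 3 iNSC1 arrays minus that of the 3 iNSC2 arrays for each of 18403 probe sets with 1 gene symbol. A positive difference is therefore a higher level in iNSC1. The other 6 arrays are 3 of wild-type neural stem cells (NSC) and 3 of wild-type mouse embryonic fibroblasts (MEF), which served here as points of reference and added to the estimate of spread.

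Per the labels, heparin at 2 µg/ml and the growth factors EGF and FGF-2, each at 20 ng/ml, were in the medium of all iNSC and NSC cultures, whereas the fibroblasts grew with 10% fetal bovine serum. Medium and cell type therefore cannot be told apart wherever the fibroblasts are mentioned. What separates iNSC1 from iNSC2 (a clone, a derivation, a passage or a factor cocktail) is not stated in the labels. They do not state either whether the 3 arrays of a set came from separate cultures, so p-values measure the spread between arrays, which may be technical. Neither the age of any animal nor the genes used for induction is given there. In a second deposited table, 2 columns carry a different name in place of iNSC2, and only 1 column carries the name iNSC2. The header of that column numbers it as replicate 1, whereas its values are those titled replicate 2. Whether the 3 iNSC2 arrays are of 1 line therefore cannot be settled from the sources used here, and every iNSC2 mean below follows the sample titles.

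Induced neural stem cells are made by forcing transcription factors into somatic cells such as fibroblasts until the cells divide as neural precursors in medium with EGF and FGF-2. Separately derived lines can differ because each keeps some transcripts of the starting cell, switches on its own set of embryonic genes, or adheres and spreads differently in culture. In neural stem cells themselves, SOX2, nestin and the radial glial fatty acid binding protein FABP7 are the customary markers.

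The labelled identity was checked first. Pou5f1, which encodes the pluripotency factor OCT4, read 12.97, 12.96 and 13.00 on the iNSC1 arrays, 13.03, 13.02 and 12.97 on the iNSC2 arrays, and had means of 12.89 for NSC and 3.54 for MEF. The iNSC sets overlapped and differed by -0.03 (95% confidence interval -0.23 to 0.16). Other pluripotency genes were also higher in NSC than in MEF. Nr0b1, Sall4 and Fgf4 averaged 10.02, 7.71 and 7.50 in NSC and 3.02, 4.97 and 4.90 in MEF. In the iNSC sets they averaged 5.74, 7.08 and 7.35 (iNSC1) and 5.43, 6.99 and 7.38 (iNSC2). They were picked from 23 measured pluripotency genes after their values were seen. Sox2, by contrast, had means of 4.56 and 4.42 in the iNSC sets, 4.58 in NSC and 4.50 in MEF. Thus the arrays labelled iNSC and NSC carried a very high Pou5f1 signal and a Sox2 signal no higher than that of fibroblasts. Fabp7 (3.17 and 3.26 in the iNSC sets, 3.13 in MEF) and the astrocyte filament gene Gfap (3.83 and 3.86, 3.64 in MEF) were also at the fibroblast level. Sox1, an early neural factor, read 7.91 and 7.79 in the iNSC sets against 6.96 in MEF, and the neural patterning factor Pax6 read 4.50 and 4.26 against 3.77. The fibroblast collagen gene Col1a1 stood at 5.80 and 5.75 in the iNSC sets and 12.25 in MEF. Olig2, a factor of oligodendrocyte and motor neuron precursors, read 3.75 and 3.69 in the iNSC sets, 4.59 in NSC and 3.48 in MEF, and was higher in NSC than in MEF (adjusted p 1.02e-06). Tubb3, a tubulin gene of neurons, read 7.82 and 7.69 in the iNSC sets, 5.14 in NSC and 7.15 in MEF. Thy1, a surface protein of fibroblasts and of neurons, read 6.16 and 6.19 in the iNSC sets, 5.50 in NSC and 11.01 in MEF. The neural markers were thus mixed, with Sox2, Fabp7 and Gfap at the fibroblast level and Sox1 and Pax6 above it, and the names iNSC and NSC are used below as the labels give them.

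None of these markers passed the adjusted p between the sets. Nestin (Nes) came closest, at 5.10, 5.50 and 5.76 in iNSC1 and 6.02, 6.01 and 6.00 in iNSC2. Its mean was 4.79 in NSC and 5.15 in MEF, so nestin was no higher in NSC than in fibroblasts. Its arrays did not overlap, but the difference of -0.56 (95% confidence interval -0.94 to -0.18) had an adjusted p of 0.164. The reprogramming factors Klf4 (difference 0.25) and Myc (0.07) had adjusted p-values of 0.47 and 0.819. Xist, the RNA that coats the inactive X chromosome, averaged 5.25 and 5.19, and the Y-linked genes Ddx3y, Eif2s3y, Kdm5d and Uty differed by -0.22, 0.06, 0.04 and 0.14. Between the iNSC sets, the adjusted p of these 5 sex-linked genes lay between 0.628 and 0.967. Each set differed from NSC in all 5, with a limma adjusted p of 0.003 or less. Xist averaged 2.90 in NSC and 3.85 in MEF. In the order above, the Y-linked genes averaged 3.06, 1.90, 2.42 and 1.83 in iNSC1. They averaged 4.80, 3.89, 3.20 and 3.10 in NSC, and 3.59, 2.59, 2.56 and 2.04 in MEF. Comparisons of the iNSC sets with NSC below therefore include a difference in sex-linked genes.

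The sets were close to each other across the transcriptome. Pairs of iNSC arrays from different sets had a root mean square difference of 0.247 to 0.302 on the log2 scale over all probe sets, with a median of 0.267. Pairs within iNSC1 gave 0.220 to 0.237 and pairs within iNSC2 gave 0.207 to 0.291, so distances between the sets overlapped those within iNSC2. Against NSC, the distances were 0.596 to 0.671 for iNSC1 and 0.600 to 0.684 for iNSC2. On group means the root mean square difference was 0.186 between the iNSC sets, 0.599 between iNSC1 and NSC and 0.601 between iNSC2 and NSC. The plot of distances between arrays shows both levels.

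**Figure D1:**
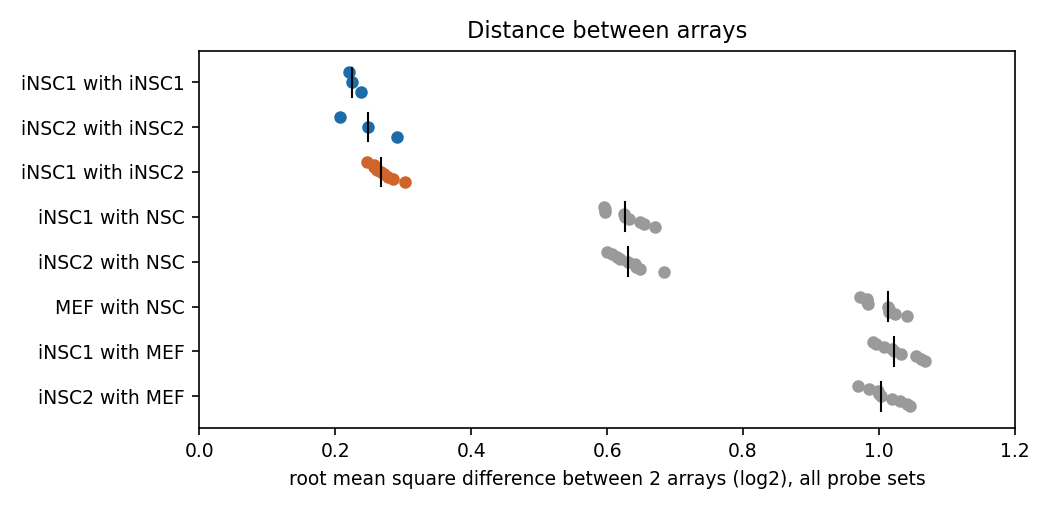
Root mean square log2 difference over 18403 probe sets for each pair of arrays, by the groups of the pair (points are pairs, black ticks are medians). The 9 pairs across the iNSC sets lie at 0.247 to 0.302, overlapping the pairs within iNSC2 and well below the pairs with NSC or MEF.

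A gene was called when its Benjamini-Hochberg adjusted p was under 0.05 in limma and its difference at least 2-fold. Of 18403 probe sets, 26 (0.141%) were called: 15 (0.0815%) were higher in iNSC1 and 11 (0.0598%) were lower. For scale, 1266 probe sets (6.88%) were called between iNSC1 and NSC and 1241 (6.74%) between iNSC2 and NSC, 2 comparisons that share the NSC arrays. With no minimum on the fold, 381 probe sets (2.07%) passed the adjusted p, 122 (0.663%) higher in iNSC1 and 259 (1.41%) lower. The difference was measured with a median standard error of 0.127, and for 18288 probe sets (99.4%) its 95% confidence interval lay within 2-fold in both directions. The arrays of the sets did not overlap for 3231 probe sets (17.6%) and for all 26 called ones. The number of lower calls depended on single iNSC2 arrays: it was 7 without iNSC2 replicate 1 and 22 without iNSC2 replicate 3. With the second iNSC2 array, the one whose column keeps the set's name, as the lone sample of its set, 14 probe sets were higher and 11 lower. Centring each array on its median gave 13 higher and 17 lower, which turned the balance of the calls. With single arrays left out, 11 of the 26 genes dropped below the threshold at least once: Cyp2b23, Marcks, Plk2, Samd9l, Ccnd2, Ecm1, Krt8, Rassf9, Kank1, Nfatc1 and Ripk3.

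**Figure D2:**
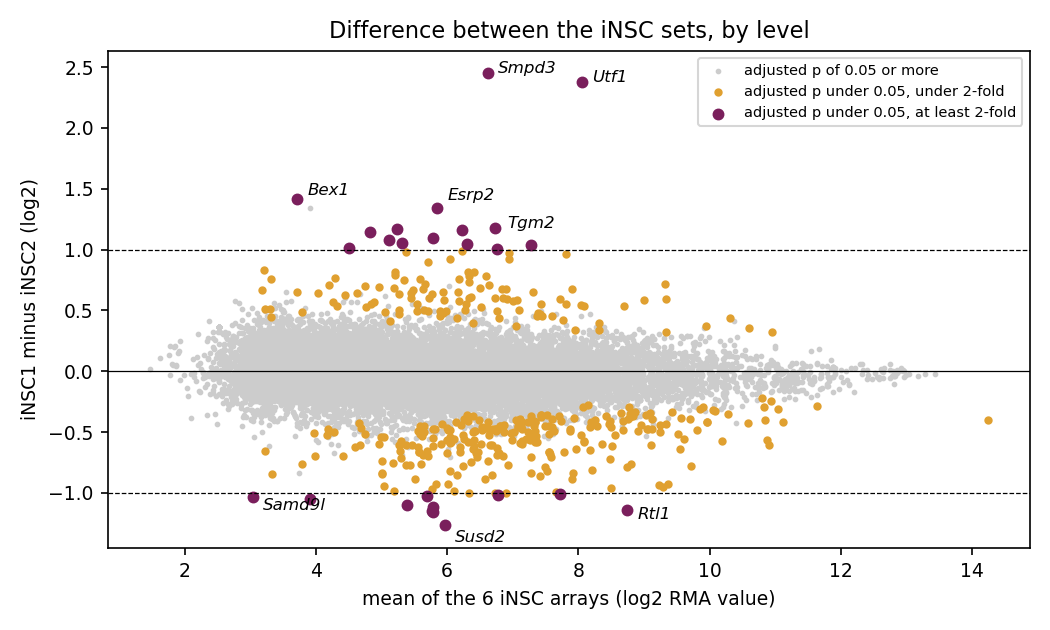
Difference between the iNSC sets (vertical, log2) against the mean of the 6 iNSC arrays (horizontal, log2 RMA value), 1 point per probe set, with dashed lines at 2-fold. The 15 called genes above and 11 below the lines are dark, Smpd3 and Utf1 stand apart at 2.45 and 2.38, and smaller differences past the adjusted p are orange.

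The genes higher in iNSC1 were led by an enzyme of membrane lipid turnover and an embryonic chromatin factor, the only 2 that differed by over 4-fold. Smpd3 encodes neutral sphingomyelinase, which releases ceramide from sphingomyelin. It read 7.76, 7.91 and 7.87 on the iNSC1 arrays and 5.36, 5.44 and 5.39 on the iNSC2 arrays, with means of 4.55 in NSC and 5.42 in MEF. The iNSC2 level was thus close to that of fibroblasts, and every iNSC1 array lay far above it. The difference was 2.45 (SE 0.12), or 5.46-fold, with an adjusted p of 2.12e-08. None of the other 5 measured sphingomyelin phosphodiesterase genes passed the adjusted p, their differences running from -0.19 for Smpd1 to 0.04 for Smpd4. Family members of called genes, here and below, were chosen after the values were seen. So were all genes named that are neither called nor markers given above. As a scale for the family counts, 2.07% of all probe sets passed the adjusted p.

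Utf1 encodes a chromatin-bound factor of undifferentiated embryonic and germ cells. Its values were 9.11, 9.34 and 9.29 in iNSC1, 6.92, 6.76 and 6.91 in iNSC2, and on average 4.87 in NSC and 4.35 in MEF. Both iNSC sets lay above NSC (adjusted p 8.95e-13 for iNSC1 and 1.34e-08 for iNSC2), and iNSC1 lay a further 2.38 (SE 0.15, 5.21-fold, adjusted p 2.46e-07) above iNSC2. Utf1 was the only one of 23 measured pluripotency genes to pass the adjusted p, where 0.663% of all probe sets were higher and 1.41% lower. The list's median difference was 0.09, against 0.00 over all probe sets. Fgf4 (7.35 and 7.38), Sall4 (7.08 and 6.99) and Gdf3 (8.38 and 8.51) did not pass between iNSC1 and iNSC2 (adjusted p 0.964, 0.856 and 0.789). They encode an embryonic growth factor, a zinc finger factor and a TGF-beta family ligand. Against NSC, the iNSC sets were not higher in all such genes. Nr0b1 averaged 10.02 in NSC and 5.74 and 5.43 in the iNSC sets, while NSC averaged 7.71 for Sall4 and 7.50 for Fgf4.

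Of the 15 higher genes, 4 lie close together on chromosome 8. Car7, Exoc3l, Esrp2 and Smpd3 fall between positions 107064707 and 108861888 in the authors' coordinates, for which no label or header names the genome build. Esrp2 encodes an epithelial splicing regulator and lies 0.122 Mb from Smpd3 by their starts. Its values were 6.43, 6.65 and 6.48 in iNSC1 and 5.27, 5.11 and 5.15 in iNSC2, with 5.39 in NSC and 5.27 in MEF. Thus iNSC2 sat near the level of both reference cultures and iNSC1 alone was higher, by 1.34 (SE 0.10, adjusted p 2.57e-06). Its paralog Esrp1 read 3.37 and 3.12 (adjusted p 0.605).

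Exoc3l encodes a relative of an exocyst subunit, a complex that tethers secretory vesicles. It read 6.81, 6.76 and 6.88 in iNSC1 and 5.76, 5.43 and 5.77 in iNSC2, without overlap. Car7, a cytosolic carbonic anhydrase gene, read 5.71, 5.82 and 5.47 against 4.58, 4.43 and 4.73, again without overlap. Their differences were 1.16 (adjusted p 1.73e-05) and 1.08 (adjusted p 0.00033). The NSC means, 5.60 and 4.28, were below iNSC1 and did not differ from iNSC2 past the adjusted p (0.795 and 0.123). The interval of 1.80 Mb holds 70 tested probe sets. None of the other 66 passed the adjusted p: their differences ranged from -0.44 to 0.35 with a median of 0.01, 36 positive and 30 negative. The chromosome as a whole had a median difference of 0.01. This grouping was noticed after the values were seen, and no test of it was made.

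**Figure D3:**
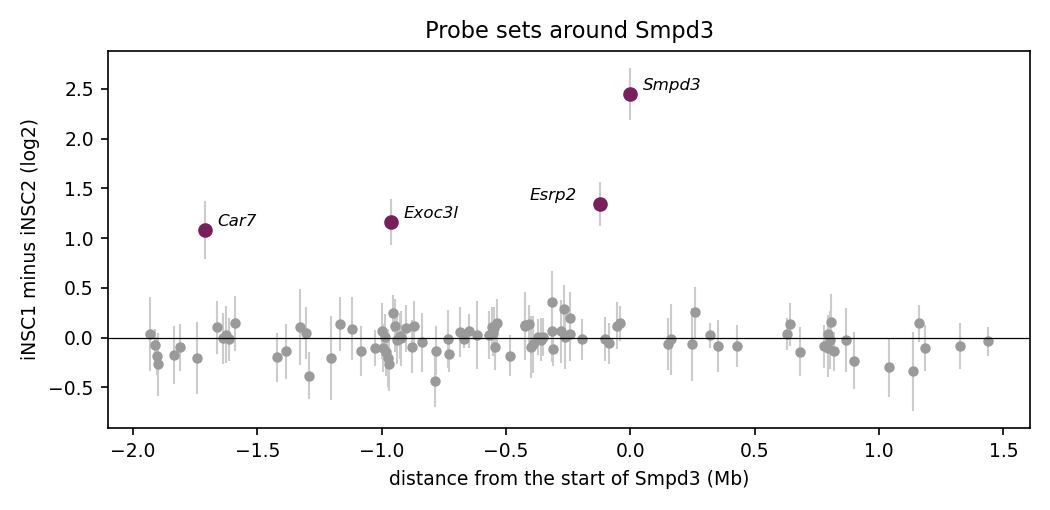
Difference between the iNSC sets (vertical, log2, with 95% confidence intervals) for the probe sets around Smpd3, by distance from its start (horizontal, Mb). The 4 called genes stand at 1.08 to 2.45 among neighbours scattered around 0.

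Ccnd2, Ripk3, Tgm2 and Kank1 were also called higher in iNSC1. Ccnd2 encodes cyclin D2, which drives cells from G1 into S phase. It read 7.25, 7.28 and 7.26 in iNSC1 and 6.25, 5.97 and 6.55 in iNSC2, while NSC averaged 9.10 and MEF 11.34. The iNSC arrays did not overlap, yet both sets lay below the reference cultures. The difference was 1.00 (SE 0.13, adjusted p 0.0003), just at 2-fold. Its relatives cyclin D1 (Ccnd1, 10.78 and 10.87, adjusted p 0.601) and cyclin D3 (Ccnd3, 8.50 and 8.26, adjusted p 0.211) did not pass. Of 31 measured cell-cycle genes, 2 passed the adjusted p, both higher in iNSC1: Ccnd2 and its kinase partner Cdk6 (difference 0.50). The list's median was 0.10, and 24 of the 31 differences were positive, against 9303 of 18403 over all probe sets. Past the adjusted p, 0.663% of all probe sets were higher and 1.41% lower.

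Ripk3 encodes the kinase that triggers necroptosis. It read 6.29, 6.36 and 6.35 in iNSC1 and 5.46, 5.04 and 5.23 in iNSC2, against means of 7.02 in NSC and 9.06 in MEF. Here iNSC2 was the lowest of the 4 groups, 1.09 below iNSC1 (adjusted p 1.73e-05). Its substrate gene Mlkl read 2.65 and 2.62, and Ripk1 4.74 and 4.80, with adjusted p-values of 0.972 and 0.918. Tgm2, which encodes the protein-crosslinking tissue transglutaminase, read 7.26, 7.24 and 7.46 in iNSC1 and 6.08, 6.27 and 6.07 in iNSC2. It stood at 4.96 in NSC and 7.72 in MEF, so iNSC1 was the nearer of the sets to fibroblasts, with a difference of 1.18 (SE 0.11, adjusted p 1.73e-05). Tgm3, an epidermal transglutaminase gene, was lower in iNSC1 instead (6.22 against 6.82, adjusted p 0.023).

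Kank1, whose product links integrin adhesions to the cell cortex, read 5.72, 5.85 and 5.94 in iNSC1 and 4.88, 4.93 and 4.53 in iNSC2. It did not overlap, and the iNSC1 level matched the MEF mean of 5.83 more closely than the NSC mean of 5.13. The difference was 1.06 (95% confidence interval 0.81 to 1.30, adjusted p 7.5e-05).

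Transcription factors and epithelial genes formed another part of the higher group. Tbx1 encodes a T-box factor of the pharyngeal apparatus. Its values were 6.84, 6.74 and 6.90 in iNSC1 and 5.71, 5.84 and 5.78 in iNSC2, with NSC at 6.09 and MEF at 5.94. The iNSC1 arrays all lay above those of the other groups, and the difference to iNSC2 was 1.05 (SE 0.10, adjusted p 1.73e-05). Of 10 T-box genes measured, Tbx1 passed the adjusted p and the others did not, where 2.07% of all probe sets passed.

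Nfatc1, a calcium-responsive NFAT factor, read 6.02, 5.59 and 5.85 in iNSC1 and 4.16, 4.91 and 4.89 in iNSC2. The first iNSC2 array was the lowest, and the sets did not overlap. The difference was 1.17 (SE 0.17, adjusted p 0.00116), and the related Nfatc4 was higher too (6.27 against 5.61, adjusted p 0.00371). The other 3 NFAT genes did not pass.

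Krt8, a keratin of simple epithelia, read 7.79, 7.91 and 7.70 in iNSC1 and 6.77, 6.65 and 6.87 in iNSC2, above the NSC mean of 5.86 and the MEF mean of 5.93. The difference was 1.04 (SE 0.11, adjusted p 6.01e-05). Its usual filament partner Krt18 read 4.55 and 4.34 (adjusted p 0.586). Other keratins ran the opposite way: Krt19 was lower in iNSC1 by 0.56 on average (10.60 against 11.16, adjusted p 0.00386), and Krt17 likewise (8.82 against 9.29, adjusted p 0.0153). Of 27 epithelial genes, 2 were thus higher past the adjusted p, Krt8 and the epithelial factor gene Elf3 (5.03 against 4.50), and 2 were lower. Among all probe sets, 0.663% were higher and 1.41% lower past it.

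The remaining higher genes were a transporter, a cytochrome and a small X-linked family. Slc43a1, a transporter of large neutral amino acids, read 5.34, 5.35 and 5.52 in iNSC1 and 3.98, 4.30 and 4.49 in iNSC2. NSC averaged 4.36 and MEF 4.26. Only iNSC1 was raised, by 1.15 over iNSC2 (adjusted p 0.000115). The glutamine transporter gene Slc38a5 was higher as well (8.35 against 7.81, adjusted p 0.0126). This made 2 of 23 transporter genes higher past the adjusted p, where 0.663% of all probe sets were.

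Cyp2b23, a cytochrome P450 gene of a family with near-identical copies, read 5.13, 5.07 and 4.85 against 3.83, 4.25 and 3.93. The groups did not overlap, NSC was higher than both at 6.99, and the difference was 1.02 (adjusted p 0.000303). Because family members share sequence, its signal may include that of relatives.

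Bex1 encodes a small adaptor of neurotrophin signalling. It read 4.63, 4.19 and 4.43 in iNSC1 and 3.41, 2.83 and 2.76 in iNSC2, against 2.94 in NSC and 2.38 in MEF. These are dim signals, and the first iNSC2 array lay above the other 2 without reaching iNSC1. The difference was 1.42 (SE 0.16, adjusted p 9.8e-05). Its X-linked relatives Bex4 (3.70 against 2.94, adjusted p 0.00806) and Bex2 (4.35 against 3.71, adjusted p 0.016) were also higher, while Bex3 (7.41 against 7.45) was not. Bex genes are similar in sequence, so these probe sets may not be independent.

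**Figure D4:**
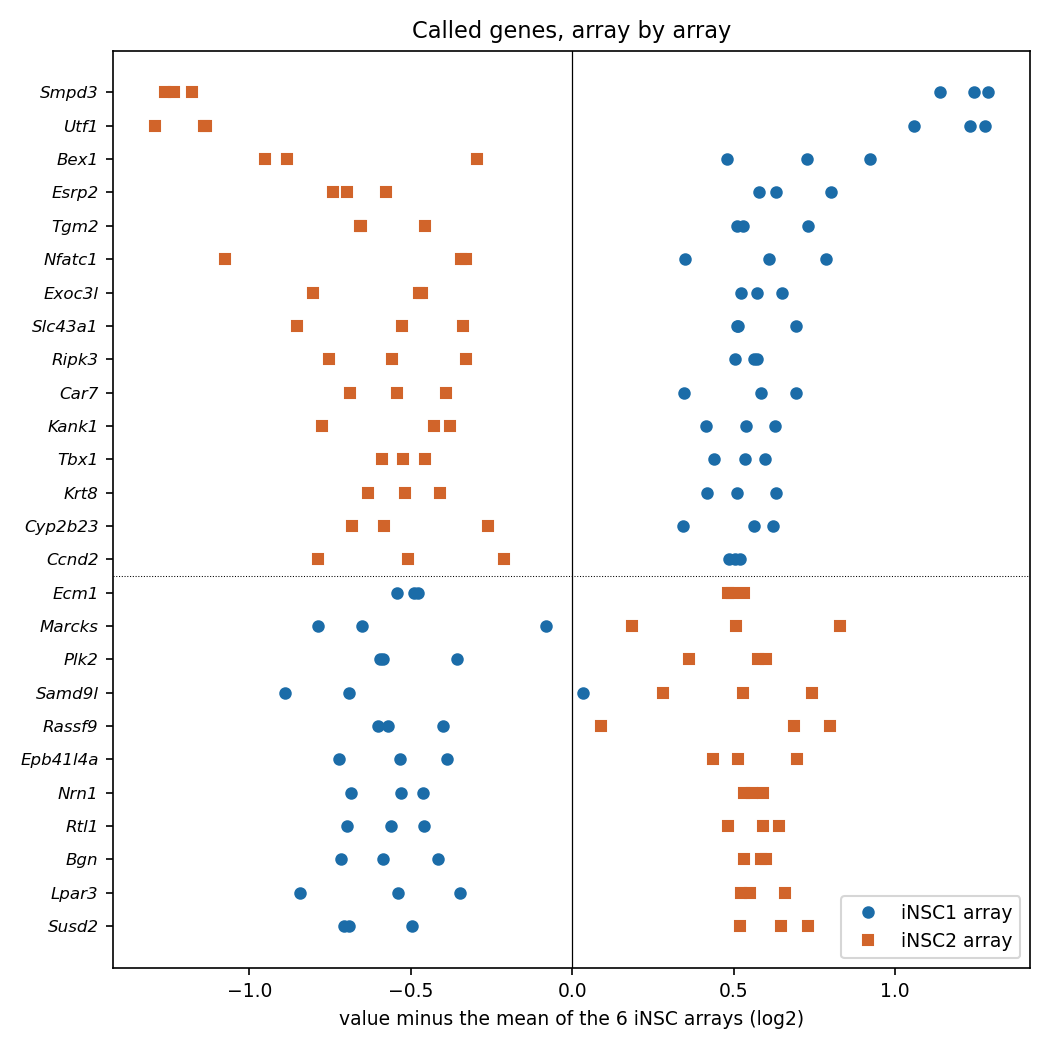
Each called gene's value on the 6 iNSC arrays minus their mean (horizontal, log2), blue circles for iNSC1 and orange squares for iNSC2, with the 15 higher genes above the dotted line and the 11 lower ones below it. The sets do not overlap in any row, and Marcks, Samd9l and Rassf9 show the narrowest gaps among the lower genes.

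The genes lower in iNSC1 included secreted and matrix proteins that fibroblasts make in quantity. Bgn encodes biglycan, a small proteoglycan of collagen matrix. It read 5.19, 5.06 and 5.36 in iNSC1 and 6.36, 6.31 and 6.37 in iNSC2, with 3.50 in NSC and 12.00 in MEF. Both iNSC sets lay between the reference cultures, and iNSC2 lay nearer to fibroblasts by 1.15 (SE 0.10, adjusted p 1.14e-05). The related proteoglycan decorin (Dcn) was at 8.35 and 8.73, above the MEF mean of 6.68, with an adjusted p of 0.404 between the sets.

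Ecm1, extracellular matrix protein 1, read 7.18, 7.24 and 7.25 in iNSC1 and 8.21, 8.22 and 8.26 in iNSC2. The arrays agreed closely within a set, spanning 0.066 in iNSC1 and 0.05 in iNSC2, and NSC (6.32) and MEF (10.84) lay outside on either side. The difference was -1.01 (SE 0.08, adjusted p 2.32e-06). Nrn1, which encodes the membrane-anchored protein neuritin, read 5.26, 5.33 and 5.10 in iNSC1 and 6.38, 6.34 and 6.32 in iNSC2, with 3.84 in NSC and 9.59 in MEF. It fell by 1.12 (adjusted p 5.59e-06) in the same order of groups as Bgn and Ecm1.

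Of 26 fibroblast and mesenchyme genes, 4 were lower past the adjusted p and none higher: Bgn, Sparc, Fstl1 and Fn1. Over all probe sets, 1.41% were lower and 0.663% higher past it. The list's median difference was 0.00, with 13 differences positive and 13 negative. Sparc, a collagen-binding matrix glycoprotein, averaged 9.32 in iNSC1 and 10.10 in iNSC2 (adjusted p 4.89e-05). Fstl1, a secreted follistatin relative, averaged 7.22 and 7.91 (adjusted p 0.0088), and fibronectin (Fn1) 9.90 and 10.47 (adjusted p 9.74e-05). The difference of Col1a1 was 0.06, with an adjusted p of 0.902.

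Some genes of adhesion and matrix turnover were lower in iNSC1 too. Among 24 integrin and laminin genes, 4 were lower past the adjusted p and none higher (1.41% and 0.663% of all probe sets), with a list median of -0.15: Lamb3 (difference -0.89), Itgb5 (-0.81), Itga3 (-0.49) and Lamb2 (-0.45). Among 25 metalloprotease, serpin and inhibitor genes, against the same background shares, 3 were lower and none higher, with a median of -0.07: Mmp2, a gelatinase (-0.82), Timp3, a matrix-bound inhibitor of metalloproteases (-0.63), and Cst3, the secreted protease inhibitor cystatin C (-0.22). The lysyl oxidase relative Loxl2, which crosslinks collagen, and the actin crosslinker Actn1 stood just short of the 2-fold limit at -0.997 and -0.999.

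Signals that respond to serum, cell spreading and growth factors formed the largest set of lower genes in a list. Of 20 targets of serum response factor and of YAP, a factor activated by tension and low cell density, 6 were lower past the adjusted p and none higher, where 1.41% of all probe sets were lower and 0.663% higher. These were Amotl2 (-0.58), Cald1 (-0.54), Cnn2 (-0.49), Ccn2 (-0.47), Ajuba (-0.46) and Ccn1 (-0.34). The list's median of -0.18 was the lowest of 43 lists, whose medians reached 0.11 at the other end. The lists were chosen with earlier results of these data known, so this rank is a description only. In this list 14 of 20 differences were negative. The hypoxia and glycolysis list, with a median of -0.13, had 26 of 30 negative and 2 lower past the adjusted p. Amotl2, which encodes a YAP-binding angiomotin, averaged 7.08 in iNSC1 and 7.66 in iNSC2, beside 6.31 in NSC and 9.30 in MEF. Ccn2, a secreted matricellular protein, averaged 6.38, 6.85, 6.42 and 12.53 in the same order.

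Immediate early genes, which growth factors and stress induce within minutes, gave 5 lower of 24 and none higher past the adjusted p, against 1.41% and 0.663% of all probe sets. Fos averaged 6.71 in iNSC1 and 7.27 in iNSC2 (difference -0.57, adjusted p 0.00906), and Jun 6.90 and 7.35 (difference -0.45, adjusted p 0.0131). These encode the subunits of the AP-1 factor. The stress factor Atf3 (-0.45) and the MAP kinase phosphatases Dusp4 (-0.58) and Dusp1 (-0.37) were the others. The list's median was -0.06. Among 20 unfolded-protein and heat-shock genes, Hspb8 (-0.96), Hspb1 (-0.93) and Dnajb9 (-0.70) were lower and none was higher, with the same background shares and a median of -0.04. The small heat-shock gene Hspb1 has a second probe set, which gave -0.94 and may read the same transcript.

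**Figure D5:**
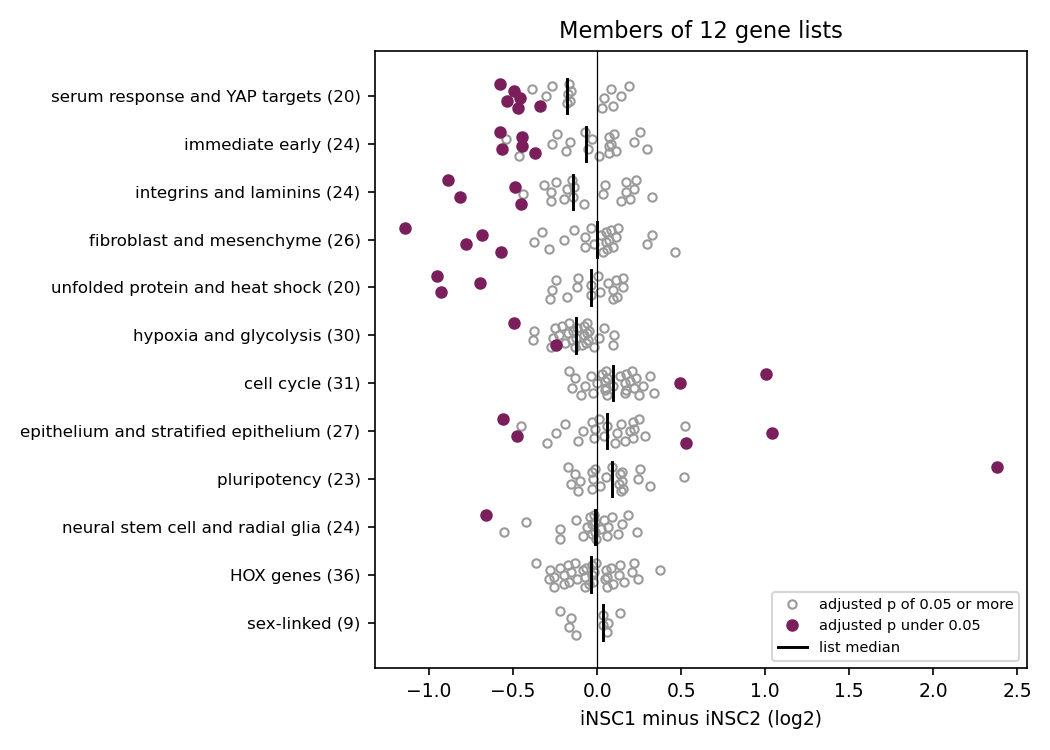
Differences between the iNSC sets (horizontal, log2) for the measured members of 12 gene lists (vertical, number measured in brackets), filled where the adjusted p was under 0.05, with list medians as black ticks. The serum response and YAP list sits furthest to the left at -0.18, and the HOX and sex-linked lists hold no filled point.

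Since Fos and Jun were among the lower genes, the letters TGANTCA, to which AP-1 can bind, were looked for on both strands in promoters. RefSeq windows on GRCm38.p6 run from 250 bases before to 50 bases after a gene's start, and 12541 of 17103 tested genes had at least 1. The letters stood in 28 of 251 windows (11.2%) of genes lower past the adjusted p, in 7 of 103 (6.8%) of those higher, and in 906 of 15753 (5.75%) over all tested genes. For the letters GGAATG, to which the YAP partner TEAD can bind, the shares were 14.7%, 11.7% and 12.7%. Some genes have several windows. Counted by gene, TGANTCA stood in windows of 25 of 184 lower genes, 7 of 88 higher ones and 855 of 12541 tested ones. The windows of these groups also differed in CpG count, with medians of 15, 19 and 18. Whether that bears on the matches was not tested. These searches were chosen after the values were seen, and a match is a description of the sequence. Ecm1, Sprr1a and Tinagl1 are shown as 3 of the lower genes whose windows hold the first motif, in capitals. The windows are chr3:95739520-95739819 for Ecm1, chr3:92485832-92486131 for Sprr1a and chr4:130175073-130175372 for Tinagl1, all on the minus strand.
Ecm1: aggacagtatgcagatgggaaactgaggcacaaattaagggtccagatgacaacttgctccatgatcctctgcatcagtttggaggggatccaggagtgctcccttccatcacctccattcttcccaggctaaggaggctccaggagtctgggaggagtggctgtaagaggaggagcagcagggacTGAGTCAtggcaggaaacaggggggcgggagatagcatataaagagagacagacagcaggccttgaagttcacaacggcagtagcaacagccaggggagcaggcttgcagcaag
Sprr1a: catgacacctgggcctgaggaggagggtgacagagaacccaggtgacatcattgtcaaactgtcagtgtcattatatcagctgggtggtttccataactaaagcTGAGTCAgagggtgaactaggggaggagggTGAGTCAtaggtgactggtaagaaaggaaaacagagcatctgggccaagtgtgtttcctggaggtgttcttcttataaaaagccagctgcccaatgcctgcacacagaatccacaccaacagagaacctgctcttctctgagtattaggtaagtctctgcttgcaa
Tinagl1: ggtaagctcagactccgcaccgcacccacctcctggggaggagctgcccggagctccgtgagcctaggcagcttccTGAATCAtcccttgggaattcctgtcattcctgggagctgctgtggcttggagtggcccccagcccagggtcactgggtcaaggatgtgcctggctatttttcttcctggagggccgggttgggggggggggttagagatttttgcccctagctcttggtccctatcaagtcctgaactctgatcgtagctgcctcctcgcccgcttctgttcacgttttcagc
Sprr1a, a cornified-envelope precursor gene with 2 matches, averaged 6.98 in iNSC1 and 7.84 in iNSC2 (adjusted p 0.0003). Tinagl1, which encodes a secreted matricellular protein, averaged 8.36 and 9.14 (adjusted p 0.000156). Both were lowest in NSC, at 4.46 and 5.95.

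Receptors and membrane proteins made up a further group of lower genes. Susd2, a sushi-domain membrane protein gene, had the largest fall. It read 5.25, 5.27 and 5.47 in iNSC1 and 6.69, 6.48 and 6.61 in iNSC2, with NSC at 3.92 and MEF at 4.68. Both iNSC sets were thus above the reference cultures, iNSC2 more so, and the difference was -1.27 (SE 0.12, adjusted p 1.73e-05). Lpar3, a receptor for lysophosphatidic acid, read 4.93, 5.24 and 5.43 in iNSC1 and 6.33, 6.44 and 6.30 in iNSC2, against 4.42 in NSC and 4.38 in MEF. It fell by 1.15 (adjusted p 6.95e-05), and none of the other 5 receptors of this lipid passed the adjusted p.

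Rtl1 is an imprinted gene derived from a retrotransposon and needed in the placenta. It read 8.28, 8.18 and 8.04 in iNSC1 and 9.38, 9.33 and 9.22 in iNSC2, whereas NSC (4.58) and MEF (4.59) were far below. The difference was -1.14 (SE 0.11, adjusted p 2.34e-05). Other genes of its imprinted cluster did not pass: Dlk1 (6.03 and 5.81), Meg3 (4.19 and 4.00), Rian (5.66 and 5.78) and Dio3 (3.42 and 3.38) had adjusted p-values of 0.622 to 0.968. Of 28 imprinted genes measured, 2 were higher in iNSC1, Phlda2 (difference 0.59) and Mest (0.50), and 2 were lower, Rtl1 and Plagl1 (-0.50). The shares of all probe sets past the adjusted p were 0.663% higher and 1.41% lower.

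Marcks and Plk2 were the 2 lower genes in which iNSC2 was the set nearer to NSC. Marcks encodes an actin-binding substrate of protein kinase C. It read 6.69, 6.12 and 5.98 in iNSC1 and 7.60, 7.28 and 6.96 in iNSC2, with 8.13 in NSC and 9.55 in MEF. The arrays spanned 0.708 within iNSC1 and 0.644 within iNSC2 without overlap, and the difference was -1.01 (SE 0.20, adjusted p 0.0132). Plk2, a stress-induced polo-like kinase gene, read 5.10, 5.11 and 5.34 against 6.27, 6.29 and 6.06, with 6.74 in NSC and 9.20 in MEF. It fell by 1.03 (adjusted p 7.5e-05) while Plk1, the mitotic kinase, differed by 0.17 (adjusted p 0.48).

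The last 3 were the cytoskeletal adaptor gene Epb41l4a, Rassf9 and Samd9l. Epb41l4a read 4.67, 5.01 and 4.86 in iNSC1 and 5.91, 5.83 and 6.09 in iNSC2, above NSC (3.41) and MEF (3.67) in both sets. Rassf9, a Ras-association domain gene, read 3.31, 3.34 and 3.51 against 4.71, 4.60 and 4.00, the third iNSC2 array standing lowest of its set. Samd9l, an interferon-inducible gene, read 2.35, 2.15 and 3.07 against 3.78, 3.32 and 3.57, and its sets were nearly in contact. Their differences were -1.10 (adjusted p 0.000261), -1.05 (adjusted p 0.00116) and -1.03 (adjusted p 0.0133). Samd9l was dim on every array, and Rassf9 on all but the first and second iNSC2 arrays. None of 23 interferon response genes passed the adjusted p, where 2.07% of all probe sets did.

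Among genes that mark neural and developmental states, few passed. For scale with the counts that follow, 1.41% of all probe sets were lower and 0.663% higher past the adjusted p. Id4, an inhibitor of neural differentiation factors, was the only 1 of 24 neural stem cell genes to pass the adjusted p (7.23 in iNSC1, 7.89 in iNSC2, 6.60 in NSC, adjusted p 0.0144). Of 17 neuronal genes, the adhesion molecule Ncam1 (4.99 against 5.76) and tyrosine hydroxylase Th (5.76 against 6.32) were lower. Of 37 WNT pathway genes, only the repressor Tcf7l1 passed, at 5.36 against 6.29 (adjusted p 0.00065). Among 31 TGF-beta and BMP genes 2 were lower, the ligand Bmp4 (-0.64) and the inhibitor Smad7 (-0.50). In the Notch pathway, Notch4 (0.68) was higher and Dtx4 (-0.61) lower among 21 genes. Of 36 HOX genes and 29 genes of cholesterol and fatty acid synthesis, none passed the adjusted p, and the list medians were -0.04 and 0.03. In all, 13 of the 43 lists held no gene past it, and 7 held a called one. Bulk RNA cannot tell fewer cells of a type from less RNA per cell for any of these genes.

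Levels in NSC and MEF, which the contrast did not use, showed where the differing genes stood. Of the 15 called genes higher in iNSC1, the NSC mean was nearer to iNSC2 for 12 and the MEF mean for 11. Of the 11 lower genes, the NSC mean was nearer to iNSC1 for 9 and lay below both sets for 8. The larger groups past the adjusted p were less one-sided: NSC was nearer to iNSC2 for 77 of 122 higher probe sets and nearer to iNSC1 for 151 of 259 lower ones. MEF was nearer to iNSC2 for 87 of the 122 and for 150 of the 259. Of the 259 lower probe sets, 97 (37.5%) were called higher in MEF than in NSC, against 9.65% of all probe sets, and 33 (12.7%) lower in MEF, against 9.42%. Of the 122 higher ones, these counts were 18 (14.8%) and 33 (27.0%). The background is not matched in level: the lower probe sets had a median level of 6.95 and the higher ones 5.95. Median array values lay between 4.31 and 4.44. Both contrasts also share the variance estimate of 1 fit, so probe sets past one may pass the other more readily. The excess over the background shares was not tested. Across all 18403 probe sets, the difference between the iNSC sets correlated weakly with that between NSC and MEF (Pearson r 0.11, Spearman rho 0.09), a description across genes, which are not independent.

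The lower group was not evenly spread over the iNSC2 arrays. Over the 259 lower probe sets, the iNSC1 arrays averaged 6.88, 6.87 and 6.88, and the iNSC2 arrays 7.54, 7.47 and 7.37. The third iNSC2 array was the closest of its set to iNSC1 in 184 of the 259, the first in 26 and the second in 49. Over the 122 higher probe sets, the iNSC2 arrays averaged 5.90, 5.84 and 5.91, and the third was the closest in 52. What distinguishes that array is not stated in the labels, and its part in the lower calls beyond the count given above was not tested.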

How the data were processed

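RNA (300 ng in total per array) was labelled with biotin and hybridised to Affymetrix Mouse Gene 1.0 ST arrays, per the labels. The deposited log2 values were made by the authors with RMA in Affymetrix Power Tools, as the submitters' processing notes record. The p-values in the authors' deposited table came without a named test, per the file headers, and were compared only with the calls made here. Median array values lay between 4.31 and 4.44. The number of arrays limits the precision. Members and lists were chosen with earlier results of these data known.

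The table lists 21774 probe sets. Those with several symbols (1452) or none (1919) were left out, and 18403 were tested. Symbols were updated by Entrez ID from RefSeq (17520 matched). A linear model with limma 3.58.1 in R 4.3.3 (lmFit, then eBayes with trend, two-sided, checked on simulated data) was fitted to all 12 arrays in 4 groups, which leaves 8 residual degrees of freedom. Calls required an adjusted p under 0.05 and 2-fold. An exact permutation test of 3 against 3 arrays cannot go below 0.1. All called genes and the fixed markers are named. Replicate numbers of the sample titles did not pair the arrays: same-numbered deviations correlated at 0.08, -0.06 and 0.01. Differently numbered ones correlated at -0.151 to 0.135, and whether another order pairs the arrays was not tested. In a second deposited table, the 12 per-array columns were not used, because 2 of them carry a different name in place of iNSC2. The header number of the remaining iNSC2 column also differs from its sample title.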

Additional observations from a re-analysis of the deposited data

How the results depend on the processing

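With no minimum on the fold, 122 probe sets were higher and 259 lower in iNSC1, and 185 of them had an NSC mean nearer to iNSC2, against 15, 11 and 14 with the 2-fold minimum. A 4-fold minimum left 2, 0 and 2. Only Smpd3 and Utf1 passed it, and the test's unadjusted p was under 0.05 for 2067 probe sets. Where a set mean of at least 6 was required, 9 were higher, and 9 had an NSC mean nearer to iNSC2. Centring each array on its median gave 13 higher and 17 lower calls. Leaving out 1 array at a time gave 14 to 17 higher calls, 7 to 22 lower calls (7 without iNSC2 replicate 1, 22 without iNSC2 replicate 3) and 11 to 16 with an NSC mean nearer to iNSC2. Chromosome medians stayed small: that of chromosome X went from -0.0305 to -0.0873 at the level minimum, and with centring that of chromosome 17 went from 0.03 to 0.001 and that of chromosome 8 from 0.0143 to -0.0103. The cause of these shifts was not tested. The fit on the 6 iNSC arrays alone gave 16 higher and 11 lower calls, both with and without the replicate number as a block. The replicate numbers of the sample titles gave no sign of pairing the arrays. With the second iNSC2 array as the lone sample of its set, an alternative added after seeing the data, 14 were higher and 11 lower. That array was assumed to vary like the other groups. No named gene past the adjusted p changed sign. Of the 26 called genes, 15 stayed past the threshold under every setting that tested them, of up to 14 (the level minimum left some of them untested). The call was lost without iNSC1 replicate 1 for Samd9l, Ecm1, Plk2 and Cyp2b23, without iNSC1 replicate 2 for Samd9l, Ccnd2, Marcks, Krt8, Plk2 and Cyp2b23, and without iNSC1 replicate 3 for Marcks. It was lost without iNSC2 replicate 1 for Rassf9, Samd9l, Marcks, Nfatc1, Plk2 and Cyp2b23, without iNSC2 replicate 2 for Rassf9, Ccnd2, Marcks, Krt8, Plk2 and Ripk3, and without iNSC2 replicate 3 for Ecm1, Kank1 and Cyp2b23. Centring lost Ccnd2 and Cyp2b23. The authors' deposited table, which was made from the same arrays, gave an adjusted p under 0.05 to 153 probe sets and shared 24 of the 26 calls.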

Other observations

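Other genes near the 2-fold limit, chosen after their values were seen, belonged to metabolism and transport. Tdh, threonine dehydrogenase, a mitochondrial enzyme prominent in mouse embryonic stem cells, read 8.29, 8.26 and 8.33 in iNSC1 and 7.40, 7.27 and 7.33 in iNSC2, with 8.36 in NSC and 3.83 in MEF. The iNSC1 level was near that of NSC, and iNSC2 was lower by 0.96 (limma adjusted p 7.62e-05). A second probe set for Tdh, placed on another chromosome by the authors, gave 0.92 (limma adjusted p 0.0093). Naprt, an enzyme of NAD synthesis from nicotinic acid, averaged 6.72 in iNSC1, 5.73 in iNSC2 and 7.35 in NSC. Slc4a11, a membrane transporter gene, averaged 7.43, 6.46 and 5.60 in the same order. Msln, which encodes the surface protein mesothelin, averaged 8.81 in iNSC1, 9.77 in iNSC2 and 5.10 in NSC.

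Tbp, which encodes the TATA-binding protein and often serves as a reference gene in quantitative PCR, averaged 6.50 in iNSC1 and 5.58 in iNSC2, with 5.60 in NSC and 5.28 in MEF (difference 0.92, limma adjusted p 0.00187). Other customary reference genes, Actb (-0.04), Gapdh (-0.06) and Hprt (0.00), did not pass the adjusted p.

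Carbonic anhydrases ran in both directions. Car7 was higher in iNSC1 by 1.08, and Car2 was lower, at 6.46, 6.34 and 6.40 in iNSC1 and 7.56, 7.52 and 7.10 in iNSC2 (difference -0.998, limma adjusted p 0.000928). Of 12 carbonic anhydrase genes measured these 2 passed, where 2.07% of all probe sets did. Car12 (0.47) stood just outside with a limma adjusted p of 0.0516.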
